A study of Homo sapiens with 12 samples.

Results

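The hypoxia and angiogenic response genes described here are the oxygen-regulated subunits HIF1A and EPAS1, the prolyl hydroxylases EGLN1 and EGLN3, the secreted factors VEGFA, ADM and ANGPTL4, and the hypoxia-induced genes CA9, NDRG1 and ANKRD37. They were taken by symbol, as 10 named genes, from tables that list 27249 genes under Ensembl identifiers among 98711 rows. A row was found for 9 of the 10, and ANGPTL4 is not analysed here. The RNA came from Huh7 and HepG2, a pair of human liver tumour cell lines that the labels class as hepatocellular carcinoma cells (HepG2 has since been described as derived from a hepatoblastoma), all labelled WT for genotype. Sorafenib-resistant and parental (labelled sorafenib sensitive) cells of each line were sequenced, with 3 samples in each of the 4 groups. Sorafenib is an oral inhibitor of several kinases, RAF kinases and VEGF receptors among them. Resistant cells were those that survived and kept growing after repeated exposures to the drug, at a first dose of 10 μmol that was raised stepwise over 8 months, so each resistant line is the surviving population of 1 line. Whether the 3 samples of a group were separate cultures is not stated, so the p-values measure only the spread between these samples. The question put to these genes was whether their RNA levels differ between sorafenib-resistant and parental cells, and whether they do so alike in both lines.

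HIF1A and EPAS1 encode the HIF-1α and HIF-2α proteins, which pair with ARNT and bind hypoxia response elements in DNA. When oxygen is present, the EGLN enzymes hydroxylate both proteins, and the VHL ubiquitin ligase complex then marks them for degradation. HIF activity is therefore set largely at the protein level, which was not measured here. In liver cancer the pathway is known for driving glucose use and the growth of new vessels.

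The deposited values are on the FPKM scale, reads scaled by exon length and by the depth of the sample, so that levels can be compared between genes. Reads behind a value were recovered from the gene length, and the total per sample was 12290128 to 19285959, lowest in parental HepG2 with 12290128 to 15728848. All 10 hepatocyte markers examined, ALB and HNF4A among them, were at 1 FPKM or more in every sample. They summed to 7860 to 9720 FPKM in parental and 5220 to 5360 in resistant Huh7. In HepG2 the sums were 4970 to 6090 FPKM in parental and 3910 to 4200 in resistant cells. ALB, the gene of serum albumin, ranged from 571 to 2140 FPKM. Of the endothelial markers CDH5 and VWF stayed at or below 0.223 FPKM, and PECAM1 was at 1.12 to 3.61 FPKM. The summed level of the 3 endothelial markers was 1.35 to 1.52 FPKM in parental Huh7, 2.11 to 2.2 in resistant Huh7, 2.58 to 3.66 in parental HepG2 and 1.17 to 1.6 in resistant HepG2. The 3 fibroblast markers summed to 1.36 to 1.74 FPKM in resistant Huh7 and to at most 0.307 FPKM in any other sample, with DCN at most at 0.0231. The leukocyte markers PTPRC and CD68 summed to at most 1.51 FPKM. What part these signals have in the results was not tested. Replicate 3 of parental HepG2 stood apart from replicates 1 and 2 for hypoxia genes. It was the lowest of the 3 parental samples in 37 of 53 tested HIF pathway targets and genes of the present set (69.8%), against 27.0% of all 11762 genes tested in HepG2, a count made after these values were seen. Where leaving out this sample changes which threshold a value of the 9 genes passes or turns its direction, the value without it is given too.

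HIF binding sites share a short core that is read as ACGTG or GCGTG. Both cores were searched on both strands in the 250 bases before each RefSeq transcription start (GRCh38.p14). RefSeq windows were found for 8 of the 10 genes, HIF1A with 2 starts. VEGFA and NDRG1 had no window. The 3 windows printed next hold the core ACGTG (other strand CACGT) and belong to the gene with the widest gap between the lines (CA9), to a gene that changed in resistant Huh7 (EGLN1) and to the gene with the most cores (ANKRD37). For all 3 the Ensembl gene bounds begin upstream of the RefSeq start used here. Capitals mark the cores, and each run is 5′ to 3′ on the strand of the gene.
CA9, chr9:35673678-35673927, plus strand: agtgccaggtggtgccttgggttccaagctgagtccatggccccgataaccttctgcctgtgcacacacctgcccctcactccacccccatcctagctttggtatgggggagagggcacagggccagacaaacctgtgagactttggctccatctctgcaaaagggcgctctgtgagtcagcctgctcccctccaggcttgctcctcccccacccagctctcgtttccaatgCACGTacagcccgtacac
EGLN1, chr1:231422288-231422537, minus strand: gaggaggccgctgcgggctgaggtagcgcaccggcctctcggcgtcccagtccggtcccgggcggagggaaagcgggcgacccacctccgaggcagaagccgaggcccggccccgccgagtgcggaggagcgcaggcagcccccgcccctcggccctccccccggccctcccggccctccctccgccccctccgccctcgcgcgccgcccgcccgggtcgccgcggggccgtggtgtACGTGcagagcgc
ANKRD37, chr4:185396591-185396840, plus strand: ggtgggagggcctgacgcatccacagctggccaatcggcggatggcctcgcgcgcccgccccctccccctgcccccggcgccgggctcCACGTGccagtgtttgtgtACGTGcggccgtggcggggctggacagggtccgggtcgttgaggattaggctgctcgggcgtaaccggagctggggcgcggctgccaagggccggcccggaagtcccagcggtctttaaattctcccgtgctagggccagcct
In CA9 the core lies on the other strand, 18 to 14 bases before the start. In EGLN1 it lies on the strand of the gene, 13 to 9 bases before the start. ANKRD37 holds 3 matches, and those at 162 to 158 and 161 to 157 bases before the start are the 2 strands of the same CACGTG, with a further match at 143 to 139.

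The core GCGTG was found once before the first HIF1A start (204 to 200 bases), once in EPAS1 (117 to 113) and once in ADM (101 to 97), each on the strand of the gene. ANGPTL4 held 1 ACGTG match on the other strand, 234 to 230 bases before the start. EGLN3 and the second HIF1A start held neither core in these 250 bases. Such short cores are common, as ACGTG occurred in 18.5% of 35116 RefSeq windows of this length, GCGTG in 32.2% and at least 1 of them in 43.2%. A match is a description of the letters and says nothing about binding in these cells.

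**Figure D1:**
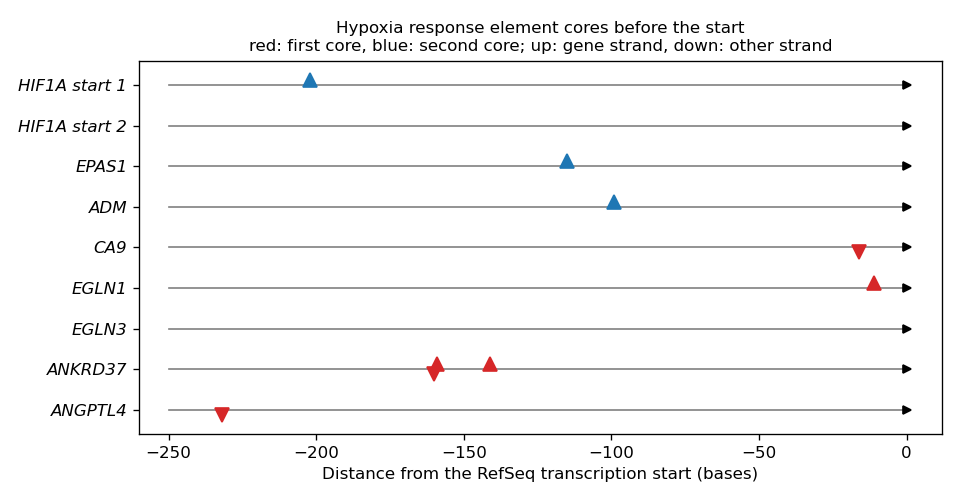
Positions of the 5-base cores ACGTG (red) and GCGTG (blue) in the 250 bases before each RefSeq start, by gene; the x axis is the distance from the start in bases, and triangles point up for the gene strand and down for the other strand. CA9 and EGLN1 carry their core within 18 bases of the start, ANKRD37 carries 3 matches, and EGLN3 carries none.

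HIF1A, the gene of HIF-1α, was the most abundant of the 9 genes in every sample group but parental HepG2, where its mean was close to that of NDRG1. In Ensembl annotation it lies on chromosome 14 at 61695513 to 61748259 of GRCh38, plus strand. Parental Huh7 had HIF1A levels of 48.7, 57.0 and 65.7 FPKM in replicates 1 to 3, and resistant Huh7 had 20.8, 19.0 and 18.6. The highest resistant Huh7 sample was far below the lowest parental one. The mean fell 2.93-fold, from 57.1 ± 8.49 to 19.5 ± 1.16 FPKM (SD, n = 3 each), and the log2 fold change on log2(FPKM + 1) was -1.50 (SE 0.13), with an adjusted p of 4.34e-05 in limma. Of the 6 genes of the set tested in Huh7, 3 passed both thresholds, an adjusted p under 0.05 and a log2 fold change beyond 1, against 22.6% of all 12554 genes tested in Huh7. An adjusted p under 0.05 alone was reached by 4 of the 6 (70.1% of all genes), and the same 4, HIF1A, EGLN1, VEGFA and NDRG1, did not overlap between the groups (74.5% of all genes). VEGFA left the count at an adjusted p under 0.05 alone with some samples left out, as given with its values. The shares at an adjusted p alone and without overlap were no higher than over all genes. The share past both thresholds was above that of all genes, but the genes were chosen with earlier results of these data known. It was 2 of the 6 with upper-quartile or median-ratio scaling. With the GC trend removed, 1 of the 6 passed both, beside 1487 of all 12545 genes. HepG2 did not show this fall. Parental HepG2 had 24.8, 14.5 and 24.1 FPKM of HIF1A and resistant HepG2 27.1, 18.7 and 20.6, with overlapping groups and a log2 fold change of 0.08 (SE 0.23, adjusted p = 0.818 in limma). The level in resistant Huh7 overlapped that of both HepG2 groups, and parental Huh7 was the only group set apart. The longest HIF1A transcript has a GC content of 36.4%. With the trend of each sample's values on GC content removed the fall in Huh7 was -0.61, which no longer passed the fold threshold.

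EPAS1, the gene of HIF-2α on chromosome 2 (46293667 to 46386703, plus strand), was expressed at a low and even level. Its FPKM was 1.41, 1.07 and 1.25 in parental Huh7, 0.91, 0.952 and 1.17 in resistant Huh7, 1.07, 0.981 and 1.07 in parental HepG2, and 0.687, 1.05 and 1.07 in resistant HepG2. All 4 groups overlapped their neighbours in the order of levels. The log2 fold change with resistance was -0.16 (SE 0.11, adjusted p = 0.248 in limma) in Huh7 and -0.08 (SE 0.15, adjusted p = 0.714) in HepG2. With the GC trend removed the Huh7 value was -0.54 with an adjusted p of 0.0034 in limma, under the fold threshold.

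**Figure D2:**
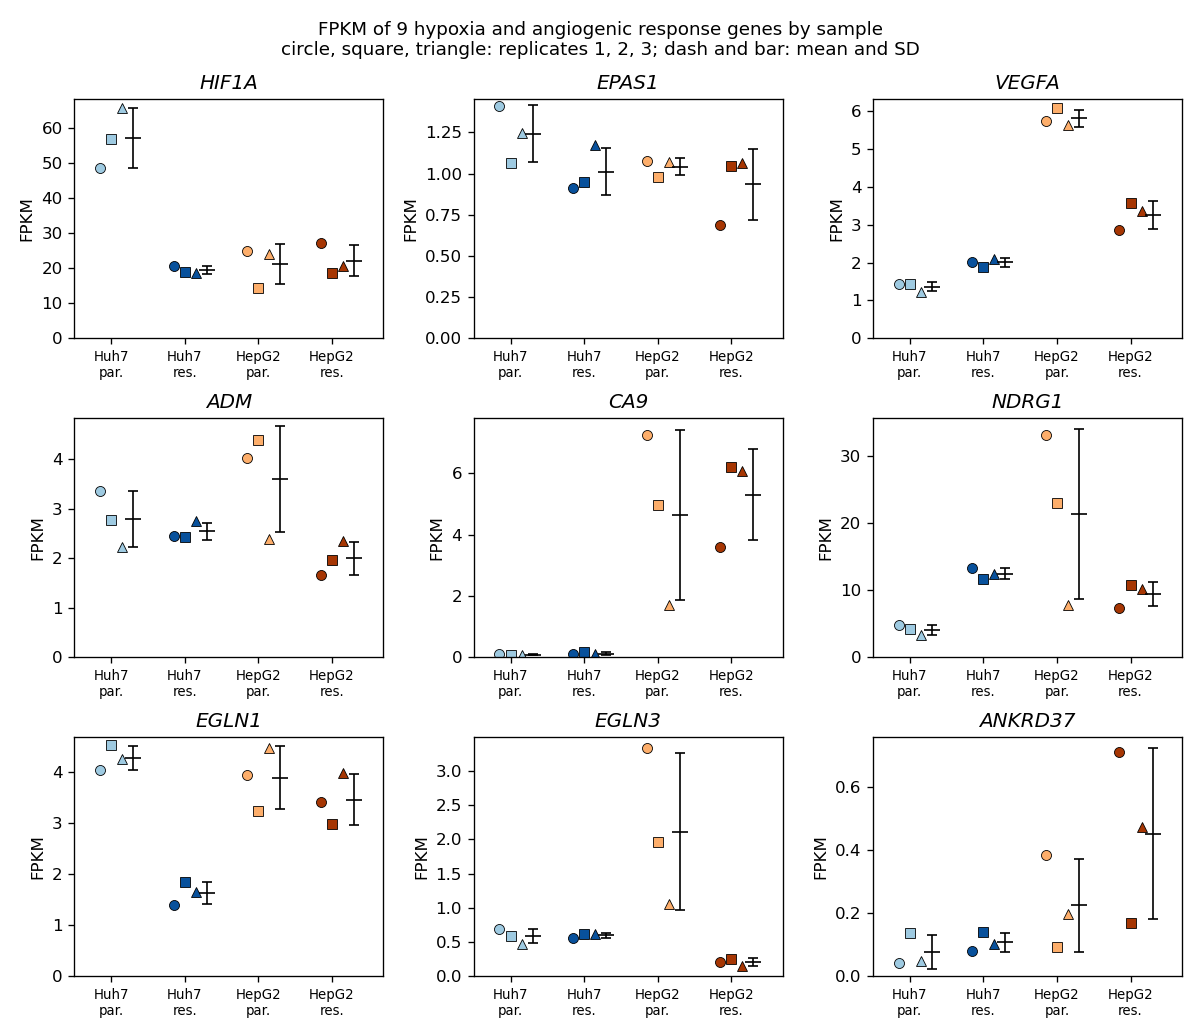
FPKM of each gene in every sample; the x axis gives the 4 groups, symbols mark replicates 1 to 3 (circle, square, triangle), and the dash with its bar gives the mean and SD of 3 samples. HIF1A and EGLN1 stand lower in resistant than parental Huh7, VEGFA and EGLN3 lower in resistant than parental HepG2, and parental HepG2 is widely spread for NDRG1, CA9 and EGLN3.

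EGLN1 (PHD2), the main oxygen sensor of the pathway, lies on chromosome 1 (231363751 to 231425044, minus strand), with the core of its promoter window printed above. It was lower in resistant Huh7. Parental Huh7 had 4.04, 4.53 and 4.27 FPKM and resistant Huh7 had 1.41, 1.84 and 1.65, without overlap. The mean fell 2.62-fold, from 4.28 ± 0.242 to 1.63 ± 0.217 FPKM (SD, n = 3 each), with a log2 fold change of -1.01 (SE 0.11, adjusted p = 0.000119 in limma). This value is just past the fold threshold, and it stopped short of it with upper-quartile scaling (-0.96), median-ratio scaling (-0.95), the GC trend removed (-0.75), without resistant Huh7 replicate 1 (-0.94) and without parental Huh7 replicate 2 (-0.97). In HepG2, EGLN1 was at 3.94, 3.25 and 4.48 FPKM in parental cells and 3.41, 2.99 and 3.98 in resistant cells. These groups overlapped, with a log2 fold change of -0.13 (SE 0.16, adjusted p = 0.586).

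EGLN3 (PHD3), an EGLN enzyme that is itself induced by HIF, lies on chromosome 14 (33924231 to 34462774, minus strand). It fell in HepG2. Parental HepG2 had 3.33, 1.96 and 1.05 FPKM in replicates 1 to 3, from 122 to 322 reads, and resistant HepG2 had 0.217, 0.26 and 0.15, from 19 to 35 reads. Every resistant sample lay below every parental sample although the parental samples differed widely. The mean was 10.1-fold lower, 0.209 ± 0.0555 against 2.11 ± 1.15 FPKM (SD, n = 3 each). Summed reads, set against depth, gave a parental to resistant ratio of 9.77 with an exact 95% interval of 7.74 to 12.5, which covers counting error only. The log2 fold change was -1.30 (SE 0.25, adjusted p = 0.0107 in limma), smaller than the ratio because the pseudocount of 1 weighs on low values, and it was -2.72 with a pseudocount of 0.1. EGLN3 was the 1 gene of 8 tested in HepG2 that passed both thresholds, against 6.27% of all 11762 genes. With VEGFA, whose adjusted p was above 0.05 without resistant HepG2 replicate 3, 2 of the 8 had an adjusted p under 0.05 (20.0% of all genes), and with ADM, 3 of the 8 did not overlap between the groups (40.4% of all genes). EGLN3 entered the test only through its 3 parental samples and left it when any of the parental HepG2 replicates 1, 2 and 3 was taken out, since the remaining samples at 1 FPKM or more were too few. Huh7 had 0.689, 0.597 and 0.479 FPKM in parental and 0.559, 0.613 and 0.622 in resistant cells. These values fell under the filter of 1 FPKM in 3 of the 6 samples, and an exact permutation test of the means gave p = 0.8, where 0.1 is the smallest p that 3 against 3 can give.

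VEGFA encodes the vascular endothelial growth factor that acts on endothelial cells through FLT1 and KDR, and lies on chromosome 6 (43770184 to 43786487, plus strand). It was higher in resistant Huh7 and lower in resistant HepG2 at an adjusted p under 0.05, by less than the fold threshold in each, so neither value counts as a call. The adjusted p in limma was above 0.05 in Huh7 without resistant replicate 1 (0.0536), resistant replicate 3 (0.0766) or parental replicate 3 (0.0576), and in HepG2 without resistant replicate 3 (0.067). Parental Huh7 had 1.44, 1.44 and 1.24 FPKM and resistant Huh7 had 2.02, 1.89 and 2.1. Every resistant Huh7 sample was higher, by 1.46-fold in the mean (2.00 ± 0.107 against 1.37 ± 0.116 FPKM, SD, n = 3 each), with a log2 fold change of 0.34 (SE 0.10, adjusted p = 0.0161 in limma). Parental HepG2 had 5.73, 6.07 and 5.63 FPKM and resistant HepG2 had 2.86, 3.58 and 3.35. Every resistant HepG2 sample was lower, by 1.78-fold in the mean (3.27 ± 0.369 against 5.81 ± 0.232 FPKM, SD, n = 3 each), with a log2 fold change of -0.68 (SE 0.14, adjusted p = 0.0119). The 4 groups did not overlap in their order, parental HepG2 above resistant HepG2 above resistant Huh7 above parental Huh7. The Huh7 value turned to -0.13 with the GC trend removed, where the longest VEGFA transcript has a GC content of 54.6%, and the HepG2 value was then -0.76.

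ADM encodes adrenomedullin, a vasodilating peptide that acts on CALCRL with RAMP2 or RAMP3, and lies on chromosome 11 (10304680 to 10307397, plus strand). It was at 3.36, 2.77 and 2.23 FPKM in parental and 2.46, 2.44 and 2.75 in resistant Huh7, and the groups overlapped (log2 fold change -0.08, SE 0.13, adjusted p = 0.586 in limma). With the GC trend removed the Huh7 value was -0.62 with an adjusted p of 0.000735 in limma, under the fold threshold. Parental HepG2 had 4.03, 4.4 and 2.39 FPKM and resistant HepG2 had 1.67, 1.97 and 2.35. The highest resistant sample was only just below the lowest parental one, which was replicate 3. The mean was 1.8-fold lower, 2.00 ± 0.34 against 3.61 ± 1.07 FPKM (SD, n = 3 each), and the log2 fold change of -0.60 (SE 0.20, adjusted p = 0.0727) passed neither threshold. Without parental HepG2 replicate 3 it was -0.80 with an adjusted p of 0.0217 in limma, still under the fold threshold. The adjusted p was 0.129 to 0.192 with any other HepG2 sample left out. In limma it was also under 0.05 in 1 fit over all 12 samples (-0.60, adjusted p = 0.026) and with the GC trend removed (-0.72, adjusted p = 0.0199).

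NDRG1, a stress- and hypoxia-induced gene of the NDRG family on chromosome 8 (133237171 to 133302022, minus strand), rose in resistant Huh7. Parental Huh7 had 4.83, 4.25 and 3.36 FPKM and resistant Huh7 had 13.3, 11.7 and 12.5, with a wide gap between the groups. The mean rose 3.01-fold, from 4.15 ± 0.74 to 12.5 ± 0.786 FPKM (SD, n = 3 each), with a log2 fold change of 1.40 (SE 0.13, adjusted p = 5.99e-05 in limma). With the GC trend removed it was 1.04, still past the thresholds. HepG2 had 33.2, 23.1 and 7.88 FPKM in parental replicates 1 to 3 and 7.36, 10.7 and 10.2 in resistant cells. Parental replicate 3 lay among the resistant samples, and replicates 1 and 2 lay above them all. The log2 fold change was -0.91 (SE 0.44, adjusted p = 0.169), and it was -1.48 and past both thresholds without parental HepG2 replicate 3. It was -0.50 without parental HepG2 replicate 1 (adjusted p = 0.441 in limma), so the value turns on which parental sample is used.

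CA9 encodes a membrane carbonic anhydrase that regulates pH at the cell surface and is a widely used marker of hypoxia. It lies on chromosome 9 (35673856 to 35681159, plus strand), with the core of its promoter window printed above at 18 to 14 bases before the start. CA9 differed between the lines, and no change with resistance was detected in either. Huh7 held 3, 2 and 2 reads in parental replicates 1 to 3 and 3, 6 and 3 in resistant ones, or 0.0711 to 0.1 and 0.0945 to 0.186 FPKM. HepG2 had 7.25, 4.97 and 1.71 FPKM in parental cells, from 45 to 159 reads, and 3.61, 6.22 and 6.09 in resistant cells, from 102 to 190 reads. Every HepG2 sample exceeded every Huh7 sample. Summed reads against depth were 54.1-fold higher in HepG2 than in Huh7 parental cells, with an exact 95% interval of 26.0 to 136, and 42.5-fold higher in resistant cells, with an interval of 24.1 to 82.9, and both intervals cover counting error only. With resistance, CA9 had a log2 fold change of 0.27 in HepG2 (SE 0.38, adjusted p = 0.637 in limma), which turned to -0.18 without parental HepG2 replicate 3. CA9 was not tested in Huh7 by limma, where the exact permutation test gave p = 0.3. CA9 shares 38.5% of its exon bases with ARHGEF39 on the opposite strand. Without strand kept in the counting, reads of this stretch cannot be told apart, and ARHGEF39 was higher in Huh7 (10.2 to 13.0 FPKM) than in HepG2 (4.37 to 7.67 FPKM), opposite to CA9.

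ANKRD37, a HIF-induced gene of an ankyrin repeat protein on chromosome 4 (185396021 to 185400628, plus strand), carried the most cores and had the lowest mean level of the 9 genes in all groups but resistant HepG2, where EGLN3 was lower. It had 2, 6 and 2 reads in parental and 4, 7 and 5 in resistant Huh7, and 13, 3 and 8 in parental and 31, 8 and 21 in resistant HepG2. The FPKM ranged from 0.0432 to 0.141 in Huh7 and from 0.0946 to 0.709 in HepG2. Groups of the same line overlapped, and exact permutation tests gave p = 0.4 in Huh7 and 0.3 in HepG2. Resistant HepG2 was above resistant Huh7 in every sample, with 4.1-fold more reads against depth and an exact 95% interval of 2.33 to 7.62, which covers counting error only. ANKRD37 shares 35.2% of its exon bases with UFSP2 on the opposite strand, which was also higher in HepG2 (6.65 to 8.82 FPKM) than in Huh7 (1.78 to 3.01 FPKM), and what part UFSP2 reads have in this difference cannot be told apart.

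**Figure D3:**
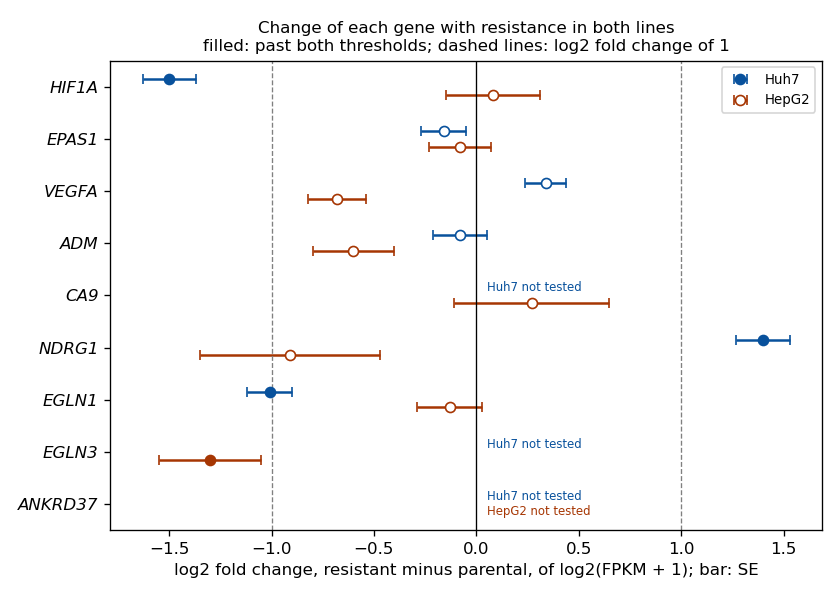
Log2 fold change of each gene, resistant minus parental, on log2(FPKM + 1), in Huh7 (blue) and HepG2 (brown); bars are standard errors, filled points passed both thresholds, and dashed lines mark a log2 fold change of 1. HIF1A and EGLN1 lie at -1.50 and -1.01 in Huh7 and near 0 in HepG2, while NDRG1 lies at 1.40 in Huh7 and -0.91 in HepG2.

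The change with resistance differed between Huh7 and HepG2 for 5 of the 8 genes that could be tested, against 56.3% of all 13800 genes at an adjusted p under 0.05 in the interaction term of limma. The share among these genes was therefore near that of all genes. The change in Huh7 minus that in HepG2 was -1.58 on the log2 scale for HIF1A (SE 0.28, adjusted p = 0.000775) and -0.88 for EGLN1 (SE 0.18, adjusted p = 0.00153). The difference was positive for NDRG1 (2.31, SE 0.53, adjusted p = 0.0034), for VEGFA (1.02, SE 0.14, adjusted p = 0.000122) and for EGLN3 (1.31, SE 0.29, adjusted p = 0.0026), which entered this test only through parental HepG2. With the GC trend removed the difference was -0.63 for HIF1A and -0.54 for EGLN1. For ADM the difference of 0.51 (SE 0.25, adjusted p = 0.0998) missed the threshold, and it passed with median-ratio scaling (0.67) and without parental HepG2 replicate 3 (0.72). EPAS1 (-0.07, SE 0.15) and CA9 (-0.22, SE 0.45) did not pass.

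Before resistance the lines already differed for part of these genes. Of 8 tested, 4 passed both thresholds between parental Huh7 and parental HepG2, against 30.2% of all genes. HIF1A was higher in Huh7 (log2 difference 1.42, SE 0.20, adjusted p = 6.63e-05 in limma), by 0.73 and short of the fold threshold with the GC trend removed. VEGFA (-1.52, SE 0.10, adjusted p = 7.29e-08), NDRG1 (-1.93, SE 0.38, adjusted p = 0.000759) and CA9 (-2.24, SE 0.32, adjusted p = 7.39e-05) were lower in Huh7. EGLN3 was also lower there (-0.91, SE 0.20, adjusted p = 0.00197) by less than the fold threshold, which it passed with a pseudocount of 0.1 (-1.56) and with limma-voom (-1.62). EGLN3, like CA9, entered this test only through HepG2, where it was high. With these included, 5 of 8 had an adjusted p under 0.05 (67.2% of all genes) and did not overlap between the parental lines (68.7% of all genes). ADM was at -0.26 (SE 0.18, adjusted p = 0.204), and at -0.47 with an adjusted p of 0.0145 without parental HepG2 replicate 3, against 0.114 to 0.543 with any other parental sample left out. The resistant cells of the lines differed past both thresholds only for CA9 (-2.46, SE 0.32, adjusted p = 4.06e-05), against 26.6% of all genes, and CA9 entered these tests only through HepG2. EGLN1 (-0.76, adjusted p = 0.000238) and VEGFA (-0.50, adjusted p = 0.000736) were lower in resistant Huh7 by less than the fold threshold. An adjusted p under 0.05 was thus reached by 3 of 8 (64.1% of all genes), and 6 of 8, all but HIF1A and EPAS1, did not overlap between the resistant lines (70.2% of all genes). EGLN3, counted among these, entered the test only through parental HepG2 and was at most at 0.622 FPKM in the resistant samples. The HIF1A difference between resistant lines was -0.16 (SE 0.20, adjusted p = 0.496) and that of NDRG1 was 0.39 (SE 0.38, adjusted p = 0.384). These comparisons share samples with those within each line and are not independent of them.

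Other genes of the pathway were taken from lists of oxygen sensing, HIF targets, angiogenic ligands, their receptors and paralogs. These lists too were chosen with earlier results of these data known. Of 82 such genes tested in Huh7, 15 rose and 9 fell past both thresholds, beside 8.59% higher and 14.0% lower among all genes. Of 76 tested in HepG2, 1 rose and 7 fell, beside 3.29% and 2.98%. Without parental HepG2 replicate 3, 11 listed genes passed in HepG2 against 8 as reported, beside 804 of all 11486 genes. Over all genes that entered the test, the median log2 fold change was -0.04 for Huh7 and 0.12 for HepG2.

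Among 12 genes of oxygen sensing and HIF regulation tested in Huh7, 1 rose and 1 fell, with a median log2 fold change of 0.30. ELOB, a subunit of the VHL ligase, rose from 58.1 ± 13.5 to 141 ± 23.4 FPKM (1.28, SE 0.19, adjusted p = 0.000454). CUL2, the cullin of the same ligase, fell from 19.7 ± 3.95 to 8.35 ± 0.866 FPKM (-1.13, SE 0.15, adjusted p = 0.000249). Neither passed the fold threshold with the GC trend removed (0.75 and -0.50), nor did CUL2 without parental Huh7 replicate 3 (-0.98). Of 11 such genes tested in HepG2, with a median of -0.03, only CITED2 passed. CITED2, which competes with HIF-1α for the coactivators EP300 and CREBBP, fell from 7.92 ± 2.71 to 1.71 ± 0.331 FPKM (-1.68, SE 0.24, adjusted p = 0.00318). The remaining partners stayed under the fold threshold. VHL was at 0.37 in Huh7 and 0.14 in HepG2, ARNT at -0.28 and -0.40, and HIF1AN, the asparaginyl hydroxylase of HIF, at 0.36 and -0.25. EGLN2, the paralog of EGLN1, was at 0.37 in Huh7, where it entered the test only through resistant cells, and under the filter in HepG2.

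HIF targets of glucose use rose in Huh7 in 7 of 17 genes tested and fell in none, with a median of 0.86. The glucose transporter gene SLC2A1 rose from 16.4 ± 2.42 to 61.1 ± 6.04 FPKM (1.84, SE 0.13, adjusted p = 2.13e-05), and the enolase gene ENO1 rose from 51.0 ± 7.07 to 172 ± 27.5 FPKM (1.73, SE 0.16, adjusted p = 5.27e-05). TPI1 (1.53), GAPDH (1.50) and GPI (1.45), enzymes of glycolysis, also passed. With the GC trend removed 3 of the 17 passed, without TPI1 and GAPDH, and the median was 0.74. The same 3 resistant Huh7 samples had the lower HIF1A RNA levels given above, and a link between these changes was not tested. GAPDH, TPI1 and ENO1 have processed pseudogenes of like sequence, and how shared reads were assigned is not given in the sources used here. In HepG2 1 of 19 such genes fell and none rose, with a median of 0.23. HK2, the hexokinase induced in many tumours, fell there from 132 ± 3.09 to 38.0 ± 1.01 FPKM (-1.77, SE 0.12, adjusted p = 0.000173), against 0.70 in Huh7, a change that stayed under the fold threshold. SLC2A1 in HepG2 was at 285 ± 91.1 FPKM in parental and 456 ± 74.9 in resistant cells (0.72, adjusted p = 0.0858).

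Other HIF targets rose in 3 and fell in 4 of 28 genes tested in Huh7, with a median of 0.09. With the GC trend removed 3 rose and none fell, with a median of -0.03. EPO, the erythropoietin gene, rose from 0.585 ± 0.185 to 6.84 ± 0.955 FPKM (2.31, SE 0.14, adjusted p = 1.12e-05), STC2, a secreted stanniocalcin, from 5.13 ± 0.876 to 16.1 ± 1.19 FPKM (1.49, SE 0.13, adjusted p = 4.88e-05), and CA12, a carbonic anhydrase like CA9, from 0.294 ± 0.0486 to 2.17 ± 0.181 FPKM (1.29, SE 0.10, adjusted p = 3.37e-05). EPO and CA12 entered the test only through resistant Huh7. PLOD2, a collagen lysyl hydroxylase, fell from 40.7 ± 6.21 to 13.2 ± 1.56 FPKM (-1.55, SE 0.14, adjusted p = 5.06e-05), and this was -0.57 with the GC trend removed. In HepG2 2 of 26 fell, with a median of -0.14. MXI1, an antagonist of MYC, fell from 35.2 ± 14.0 to 6.87 ± 0.274 FPKM (-2.13, SE 0.26, adjusted p = 0.00172).

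Of 11 angiogenic ligands tested in Huh7, 3 fell and none rose, with a median of 0.33. PDGFC, a platelet-derived growth factor, fell from 11.9 ± 1.27 to 1.86 ± 0.398 FPKM (-2.18, SE 0.14, adjusted p = 1.31e-05), and THBS1, the antiangiogenic thrombospondin, from 15.3 ± 1.98 to 2.76 ± 0.596 FPKM (-2.12, SE 0.15, adjusted p = 1.87e-05). ANGPT2, the TEK ligand, was at 2.17 ± 0.158 in parental and 0.433 ± 0.0985 FPKM in resistant Huh7 (-1.15, SE 0.11, adjusted p = 6.36e-05), entered the test only through parental cells, and was at -0.40 with the GC trend removed. Of 8 ligands tested in HepG2, 2 fell, with a median of -0.24. PDGFA fell from 6.35 ± 1.15 to 1.13 ± 0.157 FPKM (-1.78, SE 0.16, adjusted p = 0.000498), and EDN1, the vasoconstrictor endothelin, from 22.3 ± 1.99 to 7.59 ± 0.522 FPKM (-1.44, SE 0.13, adjusted p = 0.000552). The VEGFA receptors FLT1 and KDR stayed at or below 0.099 FPKM in every sample and were not tested.

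Of 8 receptors tested in Huh7, 3 rose. RAMP2, which makes CALCRL an adrenomedullin receptor, rose from 5.24 ± 1.18 to 22.2 ± 3.96 FPKM (1.90, SE 0.18, adjusted p = 6.11e-05), and RAMP1, its relative, from 2.31 ± 0.259 to 8.41 ± 1.35 FPKM (1.50, SE 0.13, adjusted p = 5.09e-05). NRP2, a coreceptor of VEGF family ligands, was at 0.595 ± 0.0478 FPKM in parental and 2.96 ± 0.183 in resistant Huh7 (1.31, SE 0.10, adjusted p = 3.03e-05) and entered the test only through resistant cells. Of 5 receptors tested in HepG2, FGFR1 rose from 1.44 ± 0.152 to 9.98 ± 0.887 FPKM (2.17, SE 0.14, adjusted p = 0.000139). Median log2 fold changes of the receptors were -0.03 in Huh7 and -0.33 in HepG2.

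Of the paralogs, 6 were tested in Huh7 and 7 in HepG2, with medians of 0.31 and 0.24. CA2, a cytosolic carbonic anhydrase, rose in Huh7 from 11.1 ± 1.19 to 35.0 ± 3.65 FPKM (1.57, SE 0.12, adjusted p = 3.03e-05). ANGPTL8, a relative of ANGPTL4, fell in HepG2 from 59.3 ± 6.8 to 18.2 ± 1.41 FPKM (-1.65, SE 0.14, adjusted p = 0.000424).

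**Figure D4:**
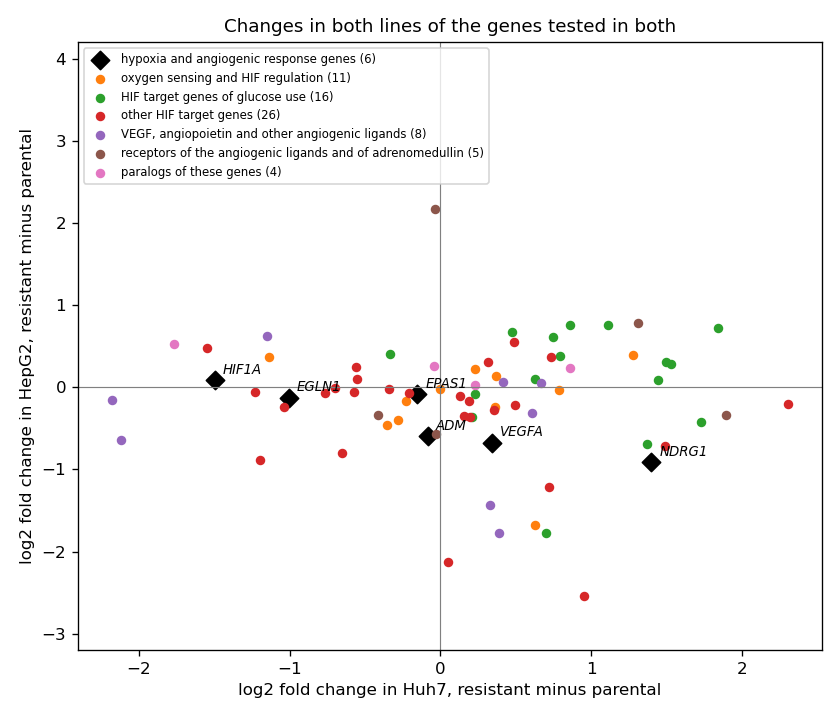
Log2 fold change, resistant minus parental, in Huh7 (x axis) and HepG2 (y axis) of the genes tested in both lines, coloured by list, with the number of genes of each list in the legend; black diamonds are the 6 hypoxia and angiogenic response genes tested in both. The green glucose use genes lie mostly to the right of 0 in Huh7, with a median of 0.86 over all 17 tested there, and NDRG1 lies at 1.40 in Huh7 and -0.91 in HepG2.

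Genes with the pattern most like that of HIF1A over the 12 samples, by the root mean square difference of centred log2(FPKM + 1) values among 13799 genes, were SECISBP2L (0.11), SMARCA5 (0.11) and ACAP2 (0.12), where the spread of HIF1A itself was 0.65. SMARCA5 had mean levels of 35.8 FPKM in parental and 13.7 in resistant Huh7, and 12.5 and 13.6 in parental and resistant HepG2. The nearest to VEGFA were KANK1, RERE and KDM5B (0.12 each, own spread 0.58), and RERE had mean levels of 56.1 FPKM in parental and 36.5 in resistant HepG2. No gene came as close to NDRG1, with KDF1 at 0.34 and TFR2 and HDAC11 at 0.36 against an own spread of 0.83. WEE1 (0.09), KIF13B (0.10) and COX6C (0.10) were nearest to EPAS1, whose own spread was only 0.12.

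Of the ways of processing tried, removing the GC trend moved the Huh7 value of HIF1A most. Scaling the samples by upper quartile or median ratio moved HIF1A from -1.50 to -1.44 and -1.42 and left its call. Removing the GC trend brought HIF1A to -0.61, EGLN1 to -0.75, VEGFA to -0.13, ADM to -0.62 and EPAS1 to -0.54, and left 1 of the 3 calls, NDRG1. The adjusted p in limma was then 0.000735 for ADM and 0.0034 for EPAS1, against 0.586 and 0.248 as reported. Both values stayed under the fold threshold.

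**Figure D5:**
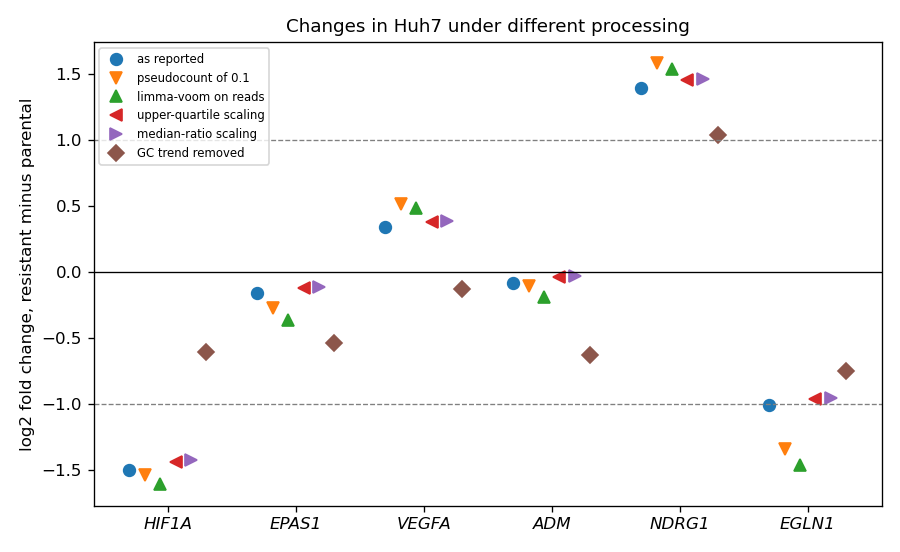
Log2 fold change in Huh7, resistant minus parental, of the 6 genes tested there (x axis), as reported and under 5 other ways of processing, marked by symbol and colour; dashed lines mark a log2 fold change of 1. NDRG1 stays above 1 in all of them, HIF1A lies at -0.61 with the GC trend removed, and EGLN1 lies on both sides of -1.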

How the data were processed

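Gene expression was analysed in 12 RNA samples, sorafenib-resistant or parental, of the Huh7 and HepG2 lines, grouped by their labels. Libraries were made with the NEBNext Ultra RNA kit per the labels, which is not stated to keep strand. The submitters' processing notes name bcl2fastq and GRCh38, and the aligner and counter are not given in the sources used here. The deposited values are FPKM made by the authors, 1 per gene and sample. The unit is not stated, and RPKM cannot be told apart from FPKM. Multiplied by exon length (GENCODE release 29, 27234 of 27249 genes), 96.4% of the values of up to 2000 reads fell within 0.05 of whole multiples of 1 step per sample, and all 108 values of the 9 genes did. Depth was 12290128 to 19285959 such reads.

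Genes with an Ensembl identifier and at least 1 FPKM in 3 samples of the comparison were tested on log2(FPKM + 1) with limma 3.58.1 in R 4.3.3, with a trend on mean expression, two-sided, as in the study's choice of tool. A call needs a Benjamini-Hochberg adjusted p under 0.05 over all genes tested and a log2 fold change beyond 1, and the interaction needs the first alone. Comparisons between lines and the interaction used all 12 samples. Genes under the filter had an exact two-sided permutation test of the mean. Read ratios have exact binomial intervals. Reads carry no stated molecular identifiers, so they may repeat a molecule and these intervals cover counting error only. The GC trend was removed by a lowess of each sample's deviations on the GC content of the longest GENCODE transcript of each gene (span 0.3). Of each list, the genes called in either line are named (the 6 of largest change where more were called), with HIF1AN, VHL, ARNT, EGLN2, FLT1 and KDR whatever their values. Some genes that this rule names are not reported here. The genes and lists were chosen with earlier results of these data known. Scripts used Python 3.11.15, pandas 2.3.3, numpy 2.4.6 and scipy 1.17.1, and the fit was tested on simulated data. Alternatives were another pseudocount, no filter, other scalings, limma-voom on the recovered reads, limma without the trend, 1 fit over all samples, a replicate block, the GC trend removed, and each sample left out.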

Additional observations from a re-analysis of the deposited data

Results flagged for a closer look

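The change with resistance differed between Huh7 and HepG2, by the interaction term of limma, for 5 of the hypoxia and angiogenic response genes. The change in Huh7 minus the change in HepG2 was -1.58 on the log2 scale for HIF1A, 1.02 for VEGFA, 2.31 for NDRG1, -0.88 for EGLN1 and 1.31 for EGLN3. HIF1A, VEGFA, NDRG1 and EGLN1 passed the threshold under every alternative run. EGLN3 entered the test only through parental HepG2, where it was high, and was not tested once any parental HepG2 sample was left out. Its difference passed under the other alternatives but has no check against these samples. Of 88 other listed genes tested in all samples, 53 also differed, beside 56.3% of all genes.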

How the results depend on the processing

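Of 678 values of the hypoxia genes recomputed under the alternatives, 647 kept their direction and stayed called or not called. A further 7 lost a call, 9 gained one and 15 turned direction. A value that stayed not called could still cross 1 of the thresholds alone, as the adjusted p of VEGFA did. With the GC trend removed, 1 of the 3 Huh7 calls was left, and 12 of the 24 listed pathway genes called in Huh7 (20 to 24 with a sample left out). Listed pathway genes called in HepG2 numbered 8 as reported and 8 to 11 with a sample left out. The 1 call of the hypoxia genes in HepG2 became 0 to 1 with a sample left out, 0 without parental HepG2 replicate 1 or 2. EGLN3 was under the filter whichever parental replicate was left out, and NDRG1 was the 1 call without replicate 3. Between resistant lines the 1 call became 3 with a pseudocount of 0.1 and 3 with limma-voom. EGLN1 and EGLN3 were added, and EGLN3 had entered the test only through parental HepG2. None of the values that turned direction was a call. With median-ratio scaling HIF1A in HepG2 was -0.023, EPAS1 in the interaction 0.037 and EGLN1 between parental lines -0.022. With the GC trend removed HIF1A was -0.0037 in HepG2 and 0.10 between resistant lines, EPAS1 -0.082 between resistant lines, VEGFA -0.13 in Huh7 and EGLN1 -0.14 between parental lines. With a sample left out HIF1A in HepG2 ranged from -0.15 (without parental replicate 2) to 0.21, EPAS1 in HepG2 from -0.13 to 0.011 (without resistant replicate 1) and between resistant lines from -0.035 to 0.11, ADM in Huh7 from -0.19 to 0.023 (without parental replicate 1), and CA9 from -0.18 to 0.62 in HepG2 and from -0.56 to 0.24 in the interaction (-0.18 and 0.24 without parental HepG2 replicate 3). The cause of these changes was not tested.

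Over all genes, Huh7 gave 2838 calls as reported, 4276 with limma-voom and 1487 with the GC trend removed. HepG2 gave 737 calls as reported and 1177 with limma-voom. The HepG2 calls were 387 higher and 350 lower as reported, 289 and 429 with median-ratio scaling and 279 and 444 with the GC trend removed, and the median of all genes moved from 0.119 to 0.029 and 0.014. Same-numbered samples did not deviate together in every pair, with correlations of 0.08, 0.06 and -0.23 in Huh7 and 0.25, 0.44 and -0.01 in HepG2, so the numbers were not taken to pair samples. With a replicate block the set kept 3 calls in Huh7, 1 in HepG2 and 5 in the interaction, and all genes gave 2841 calls in Huh7 and 779 in HepG2. Depth limits CA9 in Huh7 and ANKRD37 in all samples, where a sample held 2 to 31 reads.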
